A study of Gallus gallus with 4 samples.

Results

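The regions described here are the CTCF binding sites that were called in every peak list of the series on chicken chromosomes 1 and 3 to 10. Peaks of the 3 lists that overlapped by at least 1 bp were merged into sites, and a site was taken as a member when all 3 lists contributed a peak to it. There were 1950 such member sites among 7498 merged sites on these 9 chromosomes and 15733 merged sites in all. The members were therefore chosen by the peak calls themselves, so the calls, scores, lengths and positions below are descriptions and carry no test.

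The chromatin came from transformed chicken cell lines, and CTCF was mapped by chromatin immunoprecipitation followed by sequencing (ChIP-seq). HD3 is an erythroblast line made with avian erythroblastosis virus and is a clone (A6) of the line LSCC. One HD3 library came from non-induced cells, and another from cells in which HEPES and the kinase inhibitor iso-H-7 had been added to induce erythroid differentiation. Growth without induction was at 37 °C with added CO2, whereas induction was in air and at a temperature of its own, which the labels print in a garbled form and which is not given here. DT40 is a lymphoid line (CRL-2111), whose medium also held β-mercaptoethanol. All 3 chromatin samples were fixed with 1% formaldehyde for 8 min and precipitated with a rabbit antibody against residues 86 to 233 of chicken CTCF. An HD3 input library was also made and was not analysed here. There was 1 library per group, so differences between libraries could not be set against replicate error. Intervals given below are at 95% and cover counting error alone. The lists hold no read counts, and the depth of each library is unknown.

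CTCF is a DNA-binding protein with an array of zinc fingers that reads a long, conserved motif. It blocks the contact of enhancers with promoters at insulators, of which the insulator at the chicken beta-globin locus is the classical example, and it stops the loop-extruding cohesin ring, so that pairs of bound sites become the anchors of chromatin loops. In vertebrates many CTCF sites are occupied in most cell types, while others are specific to a lineage. No galGal4 sequence or gene annotation was used here, so the sites are given by galGal4 coordinates, counted from 1, without genes or motif letters.

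Member sites made up 26.0% of the merged sites on chromosomes 1 and 3 to 10 (exact interval 25.0 to 27.0), against 23.4% on all sequences. On the same 9 chromosomes, 2389 sites were called in DT40 alone and 972 in non-induced HD3 alone. A further 1584 were shared by DT40 with the non-induced list, and 410 by the HD3 lists without DT40. Few sites held an induced HD3 peak without a non-induced one, with 102 called in induced HD3 alone and 91 in induced HD3 and DT40. Member sites took up 76.5% of the induced HD3 peaks on these chromosomes, 39.7% of the non-induced HD3 peaks and 32.7% of the DT40 peaks. These shares follow from the rule and from the unequal lengths of the lists. The peaks that supplied the members numbered 1950 of 4916 in non-induced HD3, 1968 of 2572 in induced HD3 and 1989 of 6076 in DT40.

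The peaks of the 3 lists lay on top of each other at nearly every member. Exactly 1 peak of each list formed 1906 members (97.7%), and 1949 had a stretch of bases common to all 3 lists. No member held more than 1 non-induced HD3 peak, whereas 18 held several induced HD3 peaks and 35 several DT40 peaks, up to 5 in a single site. The exception without a common base lay at chr6:18877381-18879532. There a non-induced HD3 peak of 2152 bp (score 453) spanned an induced HD3 peak of 755 bp (score 140) and a DT40 peak of 716 bp (score 130.0) that did not touch each other.

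Few sites stood near the edge of the overlap rule. The smallest overlap that joined a list to a member was 353 bp, at chr5:53915001-53915763, where scores were 69 in the non-induced list, 59 in the induced list and 55.5 in DT40. The next smallest were 370 bp at chr10:6433675-6434409 and 371 bp at chr4:1621118-1622223. The shortest member peaks were 353 bp long in DT40 and 370 bp in induced HD3, so an overlap this small can be a whole short peak. The median of this smallest overlap over all members was 650 bp, close to the median induced HD3 peak length of 660 bp. Just outside the rule, of the 2085 sites called in exactly 2 lists, 8 had a peak of the remaining list within 500 bp and 0 had one within 100 bp. The smallest of these distances were 229 bp at chr1:71038421-71040510, where DT40 was the missing list, and 230 bp at chr1:130661043-130662271, where induced HD3 was missing. In both cases the nearby peak (scores 287 and 58.7) already belonged to a neighbouring member. These were therefore adjacent sites rather than narrow misses of the rule. The next distance, of 343 bp, lay at chr5:7446762-7447950, again without induced HD3. Whether the nearby peaks of the other sites within 500 bp also belonged to members was not tested.

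The non-induced HD3 peak was the widest at most member sites. Its median length was 1238 bp (interquartile range 1179 to 1309), against 660 bp (604 to 723) in induced HD3 and 772 bp (676 to 869) in DT40. Site by site, the non-induced peak was a median of 1.88 times as long as the induced one (interquartile range 1.72 to 2.07) and 1.61 times as long as the DT40 one (1.45 to 1.84). The DT40 peak was a median of 1.15 times as long as the induced HD3 peak (1.04 to 1.29). Among the 1906 members built from 1 peak of each list, the induced HD3 peak lay wholly inside the non-induced one at 1901 and the DT40 peak did so at 1858. The induced peak lay inside the DT40 peak at 1135 of them (59.5%). Merged member sites had a median length of 1239 bp (1180 to 1313), and the stretch shared by all lists had a median of 639 bp (579 to 704). Length went with score in every list, with Spearman's rho across the 1950 members of 0.44 in the non-induced list, 0.53 in the induced list and 0.71 in DT40. No source used here gives the caller's settings, and a difference in peak length between lists is one between single libraries.

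**Figure D1:**
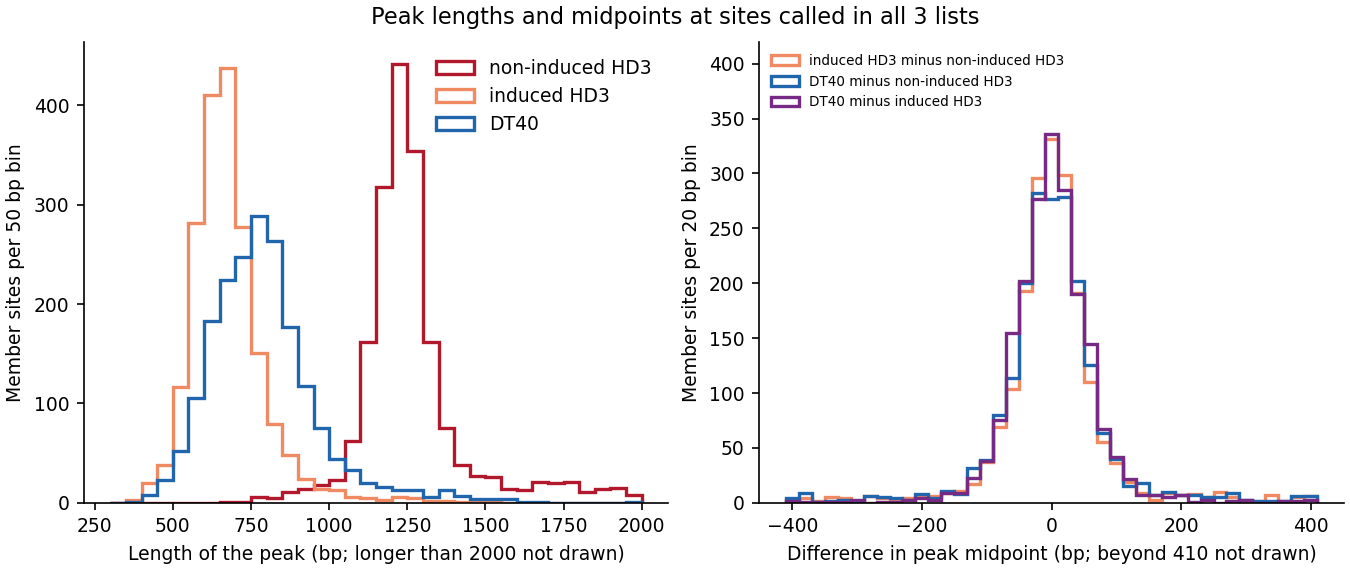
Left, number of member sites by length in bp of the peak of each list, with the longest peaks beyond the axis not drawn; right, number of member sites by difference in bp between the peak midpoints of 2 lists, with differences beyond the axis not drawn. Non-induced HD3 lengths centre near 1238 bp, away from those of induced HD3 (660 bp) and DT40 (772 bp), and the midpoint differences of all pairs centre on 0.

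The midpoints of the peaks coincided closely in spite of these lengths. The median distance between midpoints was 31.5 bp for the HD3 lists, 36.5 bp for non-induced HD3 and DT40, and 33.5 bp for induced HD3 and DT40. The distance was 100 bp or less at 86.9%, 85.7% and 91.2% of members, in the same order. Neither direction along the chromosome was favoured, with median signed differences of 0.25, -0.5 and -0.5 bp. All 3 midpoints fell within 100 bp of each other at 1546 members (79.3%), and at 38 members they spread over more than 500 bp.

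Sites with spread midpoints were mostly those with a broad non-induced HD3 peak, a split at 1500 bp that was chosen after the lengths were seen. Of the 231 members whose non-induced peak was longer than 1500 bp, 153 (66.2%) had midpoints more than 200 bp apart and 40 (17.3%) held several peaks of induced HD3 or DT40. Of the 1719 members with a shorter non-induced peak, 15 (0.873%) had midpoints that far apart and 4 held several peaks. A longer peak leaves more room for nested peaks to lie off its midpoint and for several to fit. These counts are therefore partly fixed by length, and no conclusion is drawn from the contrast. The broad group also had higher scores in its own list, with a median of 269 in non-induced HD3 against 172, and of 281 in DT40 against 200.1. In induced HD3 the medians were closer, at 103 and 90.5. Whether the broad peaks hold neighbouring CTCF sites that the caller did not separate was not tested.

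Each of the 5 longest members had a non-induced HD3 peak longer than 1500 bp. The longest, at chr1:77939071-77944560, was covered by a non-induced HD3 peak of 5490 bp (score 182) and an induced HD3 peak of 5148 bp (score 180.2), with a DT40 peak of 1544 bp (score 70.6) at 77942905 to 77944448. Its neighbour at chr1:77947490-77952337 was broad in all 3 lists, with peaks of 4848, 4171 and 4536 bp. The site at chr1:100410417-100415354 held 1 non-induced HD3 peak (score 534), 2 induced HD3 peaks (highest score 618) and 5 DT40 peaks (highest score 1305). It ranked 90 of 1950 in the non-induced list, 12 in the induced list and 16 in DT40. The remaining long members lay at chr3:80821602-80825297 and at chr6:15124440-15127860.

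Member sites were sparser on the longer chromosomes of the set. Density was 2.56 sites per Mb on chromosome 1 (exact Poisson interval 2.34 to 2.79) and 2.71 on chromosome 3 (2.41 to 3.03). It was 3.19 on chromosome 4 (2.83 to 3.58), 3.78 on chromosome 5 (3.30 to 4.30) and 4.38 on chromosome 6 (3.71 to 5.13). Chromosome 7 had 3.50 (2.92 to 4.17) and chromosome 8 had 4.24 (3.52 to 5.07). The highest densities were 5.59 on chromosome 9 (4.67 to 6.63) and 5.38 on chromosome 10 (4.41 to 6.51). Intervals of neighbours in order of density overlapped, whereas those of chromosomes 1 and 3 lay wholly below those of chromosomes 5, 6, 8, 9 and 10. All 9 chromosomes together had 3.26 member sites per Mb (3.12 to 3.41).

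The chromosomes of the set are not exactly the largest autosomes. By the largest peak end in any list, chromosome 2 (148.8 Mb) is longer than chromosome 3 (110.4 Mb), and chromosome 12 (19879501 bp) is marginally longer than chromosome 10 (19876509 bp). On chromosome 2 the same rule gave 371 sites, or 2.49 per Mb (2.25 to 2.76), below the value of every chromosome of the set, although its interval overlapped those of chromosomes 1 and 3. Chromosome Z had 1.82 (1.54 to 2.14). Chromosome 12, of nearly the same span as chromosome 10, had 4.28 (3.42 to 5.29). The smaller chromosomes 11 to 28 had 1213 such sites, or 7.08 per Mb (6.68 to 7.49).

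The share of merged sites that were called in all 3 lists varied less than density over these chromosomes. It ran from 21.9% on chromosome 1 (interval 20.2 to 23.7) through 26.0% on chromosome 3 to 31.6% on chromosome 9 (27.1 to 36.3). Chromosomes 11 to 28 together gave 27.3% (26.0 to 28.6) and chromosome 2 gave 12.3% (11.2 to 13.5). The pooled value hides differences within that group: the share was 17.0% on chromosome 11 (13.8 to 20.6), 17.8% on chromosome 20 (14.8 to 21.0) and 25.8% on chromosome 12 (21.2 to 30.9).

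**Figure D2:**
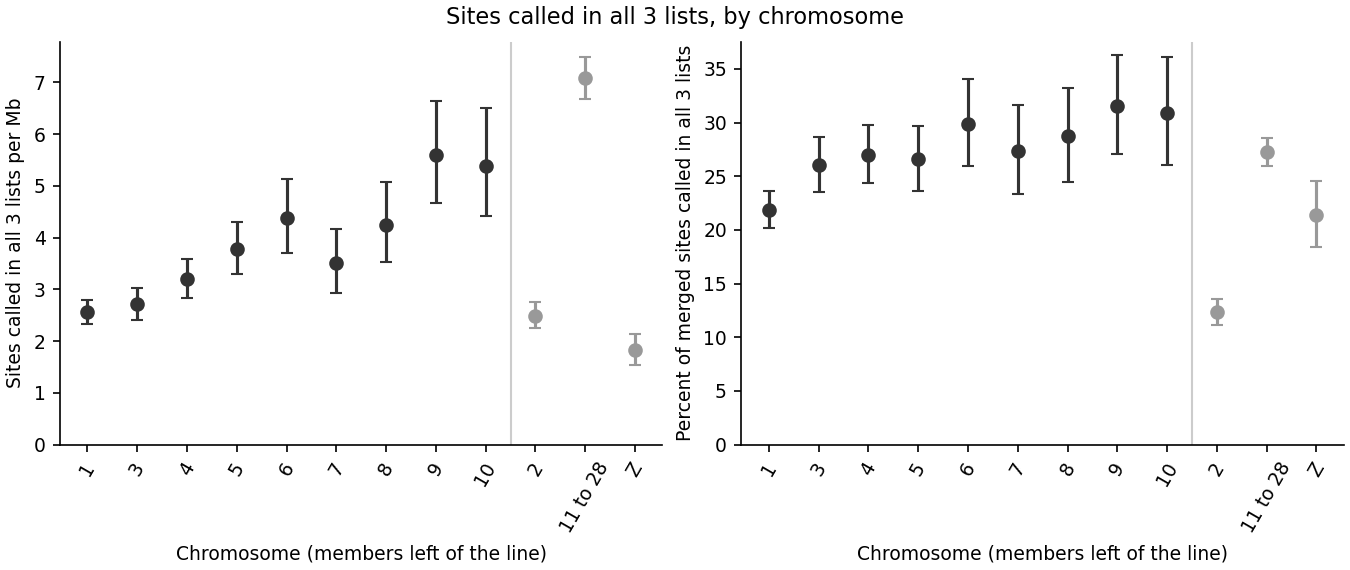
Sites called in all 3 lists per Mb of chromosome (left) and as a percent of merged sites (right); points are chromosomes or groups of chromosomes, those of the set left of the line, and bars are exact 95% intervals. Density in the set runs from 2.56 per Mb on chromosome 1 to 5.59 on chromosome 9, and the share from 21.9% to 31.6%.

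Members were denser near chromosome ends. Within 2 Mb of an end there were 5.19 per Mb (4.48 to 5.99), between 2 and 5 Mb 3.52 (3.04 to 4.06) and further inside 3.09 (2.94 to 3.25). The shorter chromosomes have more of their length near an end, so the groups were also taken apart. On chromosomes 1 and 3 to 5 the densities were 4.44 (3.47 to 5.60), 3.08 (2.42 to 3.87) and 2.81 (2.65 to 2.97). On chromosomes 6 to 10 they were 5.80 (4.79 to 6.96), 3.87 (3.20 to 4.64) and 4.38 (3.96 to 4.82), so the outermost 2 Mb had the highest density in both groups. Its interval overlapped that of the 2 to 5 Mb zone on chromosomes 1 and 3 to 5, and that of the interior, slightly, on chromosomes 6 to 10. The share of sites called in all 3 lists did not follow density: on chromosomes 1 and 3 to 5 it was 18.6% (14.8 to 22.9) in the outermost 2 Mb and 25.2% (24.0 to 26.5) more than 5 Mb inside. On chromosomes 6 to 10 the same shares were 30.9% and 29.6%.

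Neighbouring members lay a median of 148 kb apart (interquartile range 52.5 to 358; mean 305). Of the 1941 gaps, 130 (6.70%) were under 10 kb, 653 (33.6%) between 10 and 100 kb, 1029 (53.0%) between 100 kb and 1 Mb, and 129 (6.65%) 1 Mb or more. The gaps of 1 Mb or more took up 36.7% of the total gap length. In 1 Mb windows the mean was 3.24 members and the variance 7.84. There were 88 of 602 windows with no member and 23 with 10 or more, which held 273 members. Median spacing was widest on chromosome 3 (190.1 kb) and chromosome 1 (183 kb) and narrowest on chromosome 10 (93.1 kb).

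**Figure D3:**
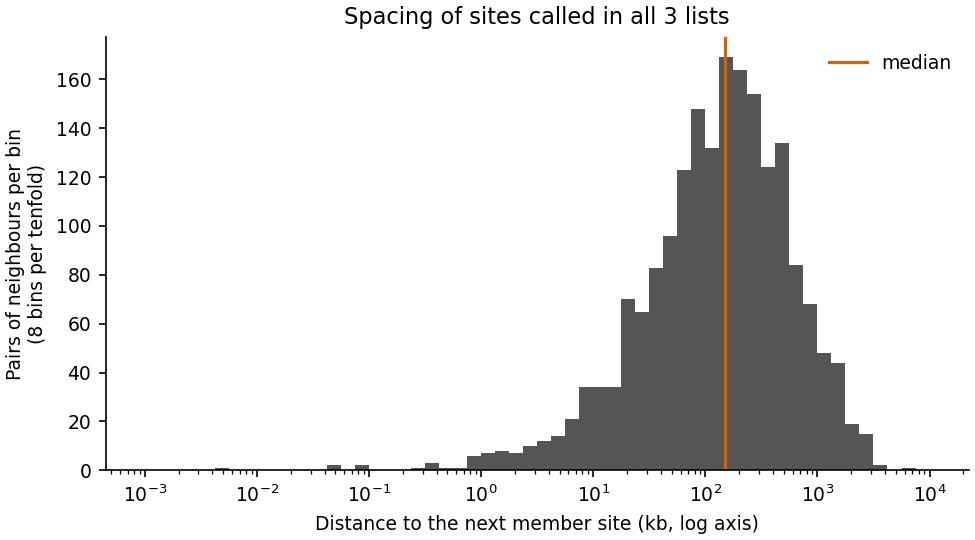
Distance in kb from each member site to the next on its chromosome, on a log axis, over 1941 pairs of neighbours. The line marks the median of 148 kb; 130 pairs lie under 10 kb and 129 at 1 Mb or more.

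The most crowded windows held 17 members each. They were chr4:1000001-2000000, with 17 of its 47 sites called in all 3 lists, and the last window of chr10:19000001-19876509, with 17 of 36. Next came chr1:76000001-77000000 with 14 of 42. In the chromosome 4 window the median member score was 241 in the non-induced list, 124 in the induced list and 408 in DT40, each above the median of all members in that list. In the chromosome 10 window the medians were 230, 99.2 and 236.

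The longest stretch without a member was 6.30 Mb on chromosome 1, from 158257486 to 164554734. It held 18 sites of other classes, of which 9 were called in DT40 alone, 3 in non-induced HD3 alone and 3 in non-induced HD3 and DT40. The next were 3.71 Mb on chromosome 3, from 82287526 to 85999357, with 8 other sites, and 3.42 Mb on chromosome 4, from 69346990 to 72762847, with 11. Sites of other classes numbered 2.86, 2.16 and 3.22 per Mb in these stretches.

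At the other extreme, 5 pairs of members were less than 100 bp apart, and each of the 10 sites was built from 1 peak of each list. The closest pair lay on chromosome 10, where 5 bp separated chr10:19614196-19615420 from chr10:19615426-19616649. Scores of the left and right site were 126 and 445 in the non-induced list, 53.4 and 156 in the induced list and 165.2 and 441 in DT40, so the right site was the stronger in all 3 lists. The pair at chr7:18981075-18982232 and chr7:18982276-18983584 was 43 bp apart and was also stronger on the right in every list. At chr6:34289072-34290329 and chr6:34290419-34291643 the left site was the stronger in every list (394 and 199 in the non-induced list, 151 and 68.7 in the induced list, 403 and 190.4 in DT40). The pair at chr1:173751989-173753136 and chr1:173753218-173754671 had scores of 190.0 and 499 in the non-induced list, 195 and 264 in the induced list and 815 and 967 in DT40. At chr3:15183501-15184773 and chr3:15184827-15186087 the scores lay close together, with 146 and 161 in the non-induced list, 92.9 and 86.5 in the induced list and 197 and 258 in DT40; this was the one pair of the 5 whose order differed between lists.

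Members also had sites of other classes close by. The nearest other merged site of any class was a median of 16.5 kb away, the nearest other member 65.9 kb and the nearest site called in fewer than 3 lists 24.5 kb. Within 10 kb, 257 members (13.2%, interval 11.7 to 14.8) had another member and 502 (25.7%, interval 23.8 to 27.7) had a site called in fewer than 3 lists. Sites called in fewer than 3 lists were also more numerous, at 5548 against 1950 members. Median scores differed little with spacing. Members with another within 10 kb had medians of 185 in the non-induced list, 92.3 in the induced list and 217 in DT40, and the 730 members with none within 100 kb had 169.8, 89.8 and 189.

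The score of a peak is the authors' value from the peak caller MACS, and it was used only to rank peaks within a list. For members the median score was 180.4 in non-induced HD3 (interquartile range 116 to 271), 91.8 in induced HD3 (65.9 to 139) and 204 in DT40 (124 to 343). The other peaks of the same chromosomes had medians of 81.0, 70.5 and 87.6. The most similar class, sites called in non-induced HD3 and DT40 and not in induced HD3, had medians of 82.9 in non-induced HD3 and 100.9 in DT40. Set among all peaks of its list, a member stood at a median percentile of 74.0 in the non-induced list, 55.0 in the induced list and 75.5 in DT40. Of the 10% of peaks with the highest scores on these chromosomes, members took 91.9% in the non-induced list, 93.8% in the induced list and 85.5% in DT40. Of the 10% with the lowest scores they took 7.32%, 63.6% and 7.40%. Over all peaks on these chromosomes the shares were 39.7%, 76.5% and 32.7%, the highest being that of the induced list, the shortest of the 3. In every list, members thus took less than their overall share of the lowest-scored peaks and more of the highest-scored ones.

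Strong sites tended to be strong in each list. Spearman's rho between scores across the 1950 members was 0.72 for the HD3 lists, 0.66 for non-induced HD3 and DT40, and 0.64 for induced HD3 and DT40. These are descriptions across sites of single libraries, and sites are not replicates. Ranks below run from 1 for the highest score to 1950. Each 10% of these ranks was taken over the members, not over all peaks of a list, and held 195 members. Of the 195 highest-ranked members of a list, 93 were in the highest 10% of members in all 3 lists. In both HD3 lists there were 127, in non-induced HD3 and DT40 115, and in induced HD3 and DT40 117. At the other end, 15 were in the lowest 10% of members in all 3 lists. The 93 sites, 4.77% of all members, were spread over all 9 chromosomes. Counts ran from 3 on chromosome 7 (2.36% of its members) to 22 on chromosome 1 (4.41%), with the highest share on chromosome 9 (10 sites, 7.63%). These shares rest on few sites and carry no interval.

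The site with the lowest sum of ranks on each chromosome stood among the 100 highest-ranked members by the score of each list. These ranks count members only, not all peaks of a list. The strongest of the set lay at chr5:57480289-57481824. Among members it ranked 1 by each HD3 score and 2 by DT40 score, with scores of 2058, 1107 and 1864. Its 3 peaks were 1536, 1022 and 1181 bp long, their midpoints lay within 66.5 bp, and the induced peak, at 57480596 to 57481617, fell inside both others. The top site of chromosome 1, chr1:173259546-173261171, ranked 4, 4 and 1, with scores of 1320 in the non-induced list, 701 in the induced list and 2050 in DT40. That of chromosome 6, chr6:34529501-34530854, ranked 2, 6 and 6, with scores of 1537, 690.4 and 1670. The others lay at chr4:324473-325761 (ranks 5, 7 and 11) and at chr3:35463361-35464676 (ranks 21, 18 and 10). The sites at chr10:3575992-3577408 (ranks 16, 17 and 18), chr9:15423521-15424734 (ranks 25, 11 and 17) and chr8:13991743-13993121 (ranks 24, 21 and 33) followed. Chromosome 7 had the weakest top site, at chr7:7044142-7045568, with ranks of 85, 91 and 67 and scores of 545, 270.2 and 778.

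The weakest members lay just above the lowest score of a list, which was about 50 in each. In induced HD3 the lowest member score was 50, at chr1:184171107-184172663, yet that site ranked 720 in non-induced HD3 (score 223) and 569 in DT40 (score 308). In non-induced HD3 the lowest was 50.4, at chr7:23041137-23042303, where induced HD3 had 94.1 and DT40 173. In DT40 it was 50.1, at chr4:41585299-41586374, with 69.6 and 59.6 in the HD3 lists. The next lowest in each list lay at chr1:192592726-192593878 and chr3:15160378-15161479 for non-induced HD3 (scores 50.5 and 50.7). For induced HD3 they lay at chr3:62371107-62372387 and chr3:53468269-53469500 (50.01 and 50.2), and for DT40 at chr10:807550-808712 and chr1:64645238-64646442 (both 50.3). The member with the highest sum of ranks, a choice added after the values were seen, lay at chr9:18974498-18975640, with scores of 51.2, 50.8 and 59.8.

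Some members held very different ranks in the erythroid and the lymphoid line. The site furthest up in DT40 lay at chr4:18078471-18079499, with rank 1893 in non-induced HD3 (score 61.1), 1776 in induced HD3 (score 55.0) and 117 in DT40 (score 626). It was also the only site in the highest 10% of members by DT40 rank and the lowest 10% by both HD3 ranks. The next ones were at chr1:175536455-175537714, chr1:179750552-179751723, chr1:175538779-175540144 and chr7:189080-190035. Across these 5 sites DT40 ranks lay between 117 and 366, and HD3 ranks between 1219 and 1893. The sites at 175536455 and 175538779 stand close together on the chromosome. All chromosome 1 sites among these 5 lie in the stretch from 160000001 to 180000000, which is described below.

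In the opposite direction, the site furthest down in DT40 lay at chr9:14334773-14336470, with rank 210 in non-induced HD3 (score 398), 250 in induced HD3 (score 189) and 1928 in DT40 (score 55.1). The others lay at chr4:48984794-48986423, chr5:5374796-5376079, chr5:13148319-13149536 and chr1:71017425-71018682. Their DT40 scores were between 50.8 and 61.6, close to the lowest in the list, against 261 to 398 in non-induced HD3. No site was in the highest 10% of members by both HD3 ranks and the lowest 10% by DT40 rank.

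Between the HD3 states the largest upward shift in rank after induction was at chr1:110611712-110612815, from rank 1857 (score 65.8) in non-induced cells to 416 (score 152), with rank 1240 in DT40. The site at chr4:60881-63764 moved from 1916 to 481, with a non-induced peak of 2884 bp and peaks of 569 bp in induced HD3 and 594 bp in DT40. The next lay at chr4:48786684-48787663, chr6:2602885-2604188 and chr3:101594608-101595736. The largest downward shift was at chr1:111690452-111692393, from rank 112 (score 489) to 1629 (score 59.6), with rank 167 (score 548) in DT40. There the induced list held 2 peaks within a non-induced peak of 1849 bp. The next shifts, from ranks between 347 and 509 to ranks between 1702 and 1924, were at chr4:73140376-73141756, chr4:49885209-49886475, chr5:33668294-33669546 and chr1:47061279-47062210. These are differences between 1 library of each state.

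Along the chromosomes, rank differences between the lines were small in most places and large in a few. For each 10 Mb segment with at least 15 members, the median difference between the mean HD3 rank and the DT40 rank was taken, so that a positive value means a higher place in DT40. Over 59 segments the middle of the distribution lay between -44.9 and 36.5 ranks (quartiles), and the extremes were -265 and 513. Both of the largest positive values came from adjoining segments of chromosome 1. In the segment from 170000001 to 180000000 the median difference was 513 ranks over 44 members, with median ranks of 206 in DT40 and 810.0 in HD3. In the segment from 160000001 to 170000000 it was 369 over 22 members, with 284 and 672. The lowest values came from chr3:80000001-90000000 (-265 over 16 members) and the first 10 Mb of chromosome 1 (-235 over 26 members). The first 10 Mb of chromosome 8 followed on the positive side, with 214 over 46 members. Segments with fewer than 15 members were left out. Among them were chr1:150000001-160000000, next to the chromosome 1 pair, with 235 over 11 members, and the last segment of chromosome 3, with -706 over 1.

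**Figure D4:**
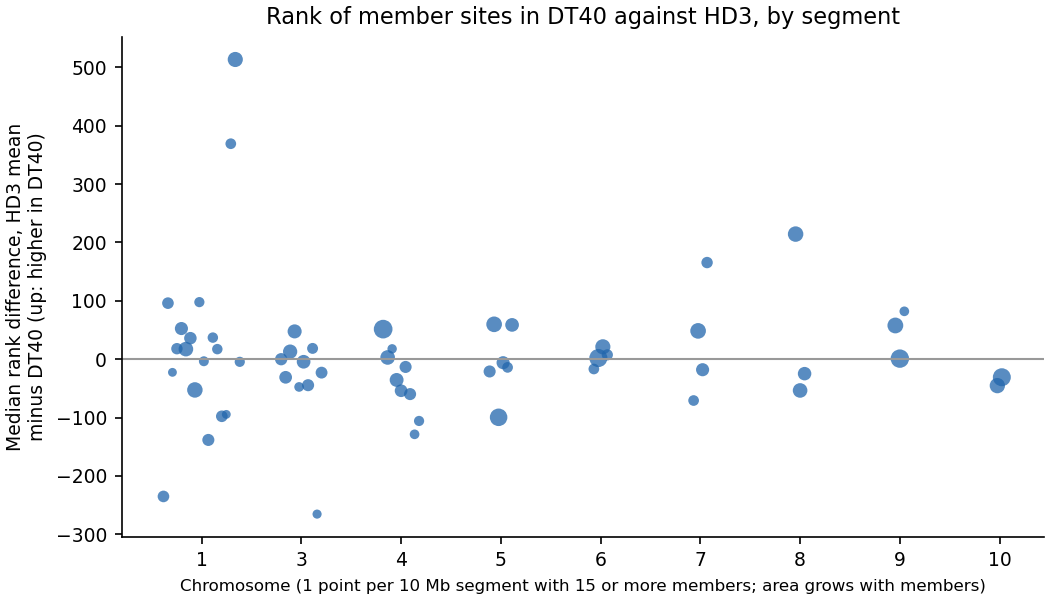
Median difference between mean HD3 rank and DT40 rank of the member sites in each 10 Mb segment with 15 or more members, by chromosome; points are segments in their order along the chromosome, with an area that grows with the number of members, and values above 0 mean a higher place in DT40. The quartiles of the 59 segments are -44.9 and 36.5, and the 2 highest, at 369 and 513, belong to chromosome 1.

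The chromosome 1 stretch from 160000001 to 180000000, singled out after these values were seen, held 66 members. It begins inside the longest stretch without a member, which ends at 164554734. The median member score in the 20 Mb was 476 in DT40 against 201 for all other members, while in non-induced HD3 it was 222 against 179 and in induced HD3 102 against 91.5. Median ranks were 242 in DT40 (interquartile range 75 to 527), 729 in the non-induced list (422 to 1437) and 840 in the induced list (365 to 1351). DT40 ranked higher than the HD3 mean at 60 of the 66 sites (90.9%), against 936 of the other 1884 (49.7%) and 51.1% of all members. By DT40 rank, 30 of the 66 were in the highest 10% of members, compared with 11 by the non-induced and 7 by the induced rank. Expressed in percent of the number of members, the median difference from the DT40 rank was 22.1 with the non-induced HD3 rank and 23.5 with the induced one. Between the HD3 states the median differences were 3 and 3.5 ranks in the 2 segments.

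The stretch also held many sites of DT40 alone and few of non-induced HD3 alone. There were 217 sites called in DT40 alone, or 10.9 per Mb (9.45 to 12.4), against 3.75 in the rest of the 9 chromosomes. Sites called in non-induced HD3 alone numbered 9, or 0.45 per Mb (0.206 to 0.854), against 1.66 (1.56 to 1.77). Single segments elsewhere on chromosome 1 went further in each of these measures. The last segment, chr1:190000001-195275492, had 106 sites of DT40 alone, or 20.1 per Mb, with 10 members. The segment chr1:150000001-160000000 had 0.2 sites per Mb of non-induced HD3 alone, with 11 members. In the stretch from 160000001 to 180000000, non-induced HD3 sites of all classes numbered 6.70 per Mb (5.61 to 7.94). They numbered 8.27 in the rest of the set and 6.83 in the rest of chromosome 1. Of the 134 non-induced HD3 sites in the stretch, 119 (88.8%, interval 82.2 to 93.6) were also called in DT40, against 71.4% (70.1 to 72.7) in the rest. Members numbered 3.30 per Mb there, and the value of the rest of the set, 3.26, lay inside the counting interval of the stretch. The rest of chromosome 1 had fewer, at 2.47 per Mb (2.24 to 2.71). That value lay below the lower bound of the stretch, 2.55, although the intervals overlapped. With 1 DT40 library, a property of the library and a property of the cell line cannot be told apart. No DT40 input was analysed here, so DNA copy number and CTCF occupancy cannot be told apart in the DT40 scores, ranks and calls, on these or other chromosomes.

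**Figure D5:**
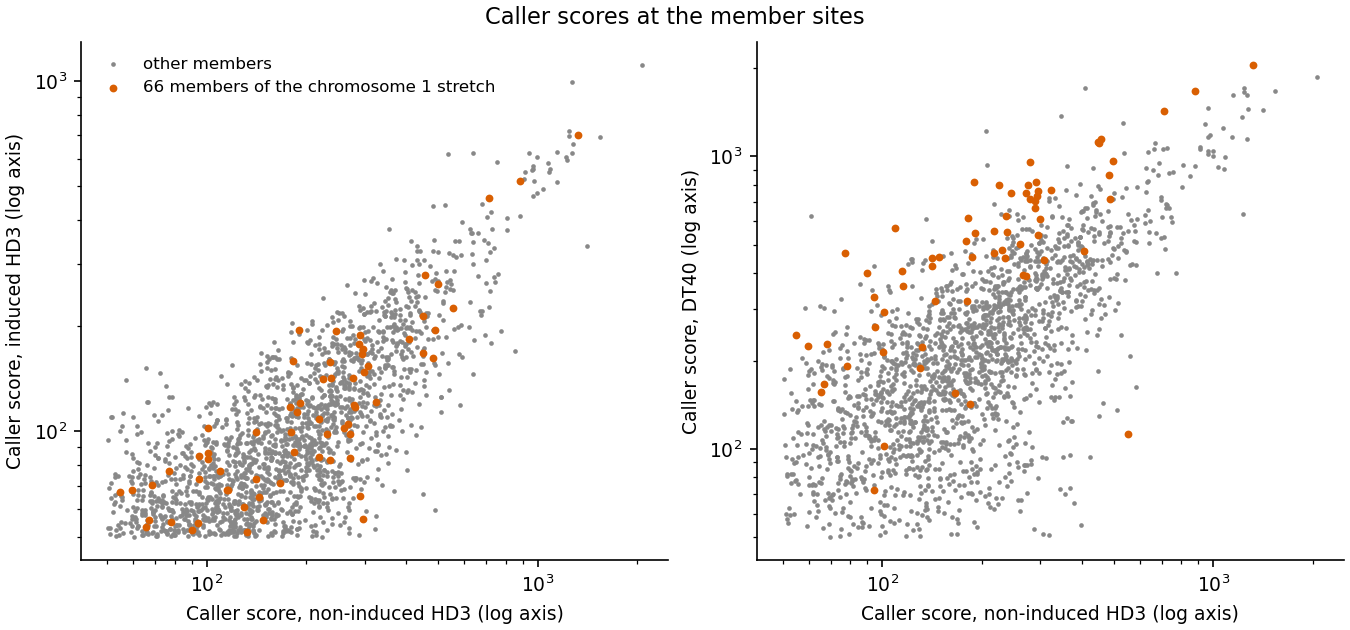
Caller score of each member site in non-induced HD3 (x axis) against induced HD3 (left) and DT40 (right), on log axes; the larger orange points are the 66 members of the chromosome 1 stretch. They lie among the other members on the left and mostly in the upper part of the cloud on the right, where their median DT40 score is 476 against 201.

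Outside the 9 chromosomes, sites called in all 3 lists stood higher in the DT40 list. Their median percentile within it was 85.2 on chromosomes 11 to 28 together and 81.7 on chromosome 12. Among chromosomes singled out after their values were seen, it was 94.3 on chromosome 11, 95.9 on chromosome 20, 92.2 on chromosome Z and 87.6 on chromosome 2. On the single chromosomes of the set it lay between 70.6 (chromosome 3) and 78.0 (chromosome 5), and in the chromosome 1 stretch it was 93.9. In non-induced HD3 the same medians were 76.7, 80.2, 67.2 and 67.6 on chromosomes 11, 20, Z and 2, and 81.5 in the stretch. Chromosomes 11 to 28 together, which include 11 and 20, also stood higher than the members in both HD3 lists. Their medians were 78.8 in the non-induced and 60.5 in the induced list, against 74.0 and 55.0 for members. Chromosome 12 had 76.3 and 59.0.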

How the data were processed

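CTCF ChIP-seq peak lists of 3 chicken libraries were analysed, 1 each of HD3 without and with induction and of DT40. The submitters' processing notes name CASAVA 1.8.2, Bowtie2, MACS and the build galGal4. No source used here states the parameters, or the control set against each library. The deposited score of each peak is the value the authors took from MACS, with no stated scale. Each library had its own list. In that order, the lists hold 8768, 4820 and 13574 peaks and no read counts.

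Peaks were merged at an overlap of 1 bp or more. A list with several peaks in a site was represented by its highest-scored peak. Chromosome spans were the largest peak end in any list. Shares carry exact Clopper-Pearson and densities exact Poisson 95% intervals, which treat sites as independent. With 1 library per group there was no test and no p-value. Computation was in Python 3.11.15 with pandas 2.3.3, NumPy 2.4.6 and SciPy 1.17.1, and plots were drawn with matplotlib 3.10.9. The merging was tested on simulated lists of well-separated sites with at most 1 peak per list. A few made-up peaks that touched, overlapped or formed a chain were also used. Sites with several peaks of a list were not simulated. Named were the site of lowest rank sum on each chromosome, the 5 largest rank differences in each direction between DT40 and the HD3 mean and between HD3 states, the 5 longest sites, the 3 fullest 1 Mb windows, the 3 longest gaps, the 5 closest pairs, and the 3 sites nearest each threshold. Members, rules and lists were chosen with earlier results of these data known. The 1500 bp split and the chromosome 1 stretch were chosen after their values were seen. Alternatives were stricter overlap, midpoints, scores, list lengths and peak lengths. No genome, gene annotation or sequence of this build was used.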

Additional observations from a re-analysis of the deposited data

How the results depend on the processing

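The number, share, density, spacing, score correlations, midpoint distances, lengths and percentiles of the whole set were recomputed under 7 settings, and the rank difference of the chromosome 1 stretch under 10. Values per chromosome, zone, window, segment or named site, the broad-peak split, length ratios and overlaps of the highest ranks were not. No paired analysis was possible because there was a single library per group, which also leaves no replicate to omit. A score of at least 100 in every list left 799 members, a share of 19.5%, 1.34 per Mb, a median spacing of 345 kb and Spearman's rho of 0.69 for the HD3 lists, 0.62 for non-induced HD3 with DT40 and 0.59 for induced HD3 with DT40. The 4820 top-scored peaks of each list left 1185 members, a share of 31.5%, 1.98 per Mb, 216 kb and a rho of 0.63 for non-induced HD3 with DT40. Fewer peaks entered both settings by construction. The minimum of 100 lay above the median member score of induced HD3 (91.8) and below those of non-induced HD3 (180.4) and DT40 (204). A reciprocal overlap of 50% gave 20.7%, 2.88 per Mb and 166 kb, with 1721 members. Under that rule a peak shorter than 50% of another cannot join it directly, even when nested in it. The non-induced peak was 2.07 times as long as the induced one at the upper quartile of members. How much of the loss follows from these lengths was not tested. Midpoints within 500 bp, a common base, exactly 1 peak per list and leaving out peaks over 3000 bp kept between 1906 and 1949 members. For the chromosome 1 stretch, the median rank difference was 25.1% of the number of members; settings for it were chosen after the data were seen and gave 22.1% to 31.4%, the 2 highest being 31.4% under the score minimum and 30.5% under equal list lengths. The score correlations stayed positive under all 7 settings. The rank difference of the chromosome 1 stretch also stayed positive, but the stretch had been singled out for its high value. The other recomputed values cannot be negative, so a change of direction was not possible for them. Without read counts, the depth behind a peak that was not called is unknown, so a site missing from a list is not shown to be unbound there.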
